A study of Mus musculus with 7 samples.

Results

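The ATF4 response was examined in alveolar macrophages through 36 genes that encode its transcription factors and kinases, its stress effectors, the amino acid transporters and synthesis enzymes it controls, and 11 cytosolic tRNA synthetases. The genes were taken from the count table by symbol, a trailing 1 being allowed for the synthetases only, and all 36 were found among the rows of the table. Of these, 33 had enough counts to be tested by edgeR, out of 12759 genes tested in all. Ddit4, Chac1 and Pycr1 were too low for its count filter, at 0 to 16 reads in any library. The members were listed by pathway and not by their values, but by someone who knew other results of these data.

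RNA was sequenced from alveolar macrophages, the resident phagocytes of the lung airspaces, sorted from C57BL/6 mice aged 4 months. The 4 libraries of wild-type (WT) cells and the 3 libraries of Cish knockout (KO) cells differ by genotype alone, as far as the labels go, and the labels name no treatment. Cish encodes an inducible inhibitor of cytokine receptor signalling. The labels give neither the deleted part of the gene, the sex of the mice, nor how many mice stand behind a library. The p-values therefore describe the spread between libraries, which may be technical.

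ATF4 is a transcription factor of the integrated stress response. Kinases that sense unfolded protein, amino acid shortage, heme shortage or double-stranded RNA phosphorylate the initiation factor eIF2, which lowers protein synthesis in general while the ATF4 message is translated more. ATF4, with partners such as C/EBP proteins, then raises genes for amino acid uptake, asparagine, serine, glycine and proline synthesis, one-carbon metabolism in mitochondria and the charging of tRNAs. Because much of this control acts on translation, the level of the Atf4 message and the activity of the protein can part company, and only messages were measured here. Alveolar macrophages take up surfactant and inhaled material and carry a heavy load of lipid and protein turnover.

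ATF4 and C/EBP proteins bind together at the C/EBP-ATF response element, here searched as TGATGNAA on both strands of the RefSeq promoter windows (GRCm38.p6), which run from 250 bases before to 50 bases after each annotated start. Windows were found for 32 of the 36 genes. The letters occurred in 10 of those 32 (31.2%) and in 1219 of all 27025 genes with a window (4.51%). By role they occurred in 5 of 8 tRNA synthetases, 2 of 9 enzymes (Asns and Pycr1), 2 of 6 transcription factors and co-regulators (Nupr1 and Trib3) and 1 of 4 stress effectors (Chac1). They were in none of the windows of the 3 genes for eIF2 kinases and phosphatase or of 2 transporters. A match is a stretch of letters, not a measured binding site. The following 6 matches are shown because they place the same element in genes with different results. Asns was called higher in KO by DESeq2, and Nupr1 was lower in every KO library. Trib3, Gars and Tars had no detectable difference, and Chac1 was too low for the count filter of edgeR. Each match is read 5′ to 3′ on the strand that holds the element, which stands in capitals.
Asns, chr6:7693214-7693243, minus strand: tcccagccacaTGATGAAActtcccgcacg
Nupr1, chr7:126625562-126625591, plus strand: caagccctgtcTGATGCAAtctggcccttt
Trib3, chr2:152344028-152344057, plus strand: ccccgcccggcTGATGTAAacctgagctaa
Chac1, chr2:119351038-119351067, minus strand: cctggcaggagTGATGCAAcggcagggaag
Gars, chr6:55037960-55037989, minus strand: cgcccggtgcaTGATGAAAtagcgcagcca
Tars, chr15:11399655-11399684, plus strand: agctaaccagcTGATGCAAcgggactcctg
The other 4 genes with a match were Pycr1, Aars, Yars and Iars. The windows of Gpt2, Mthfd2, Psat1, Shmt2 and Ddit3, described below, do not hold these letters.

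Libraries held 26780291 to 34483612 counts. Cish reads served as the check of the labels, at 29.6 to 67.9 CPM in WT and 10.9 to 14.3 CPM in KO, without overlap (adjusted p 0.0519 by edgeR, 2.99e-11 by DESeq2), and a sum over the gene cannot place the KO reads in exons. CPM are counts scaled by edgeR's TMM factors to a common library size, and the fold changes below are KO over WT. All 12 fixed markers of alveolar macrophages were detected, among them Siglecf at a mean over all libraries of 499.5 CPM, Marco at 476.1 CPM and Pparg at 453.4 CPM. They differed in direction between genotypes, and edgeR called 0 of them (0.0862% of all genes). Siglecf, Cidec and Ear1 were lower in every KO library (log2 fold change -0.41, -0.64 and -0.37), and Mrc1 was higher in every KO library (0.29). Chil3 (1.01) and Car4 (0.99) had higher means in KO, with overlap. On the first principal component WT 4 (7.27) lay between the other WT libraries (-39.4 to -24.1) and KO (18.3 to 43.9). Results are also given without WT 4 and KO 3, the last pair of columns in the table. On that component KO 3 (18.3) lay near KO 2 (24.7). Leaving out WT 4, the WT library nearest to KO, can by itself raise the number of calls. Counts from fits without it are therefore descriptions only.

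Across the 33 tested genes, DESeq2 called 3 enzyme genes, Asns, Gpt2 and Mthfd2, and the stress factor gene Ddit3 higher in KO. EdgeR in its main setting called none of them, and with no filter on low counts it called Asns and Gpt2. Atf4 itself and the 11 tRNA synthetases showed no detectable difference. DESeq2 called 4 of 33, all higher in KO, where it called 5.20% of all genes, 2.48% higher and 2.72% lower. EdgeR, the main test, called 0 of 33 at an adjusted p below 0.05, where it called 0.0862% of all genes (0.0470% higher and 0.0392% lower), and limma voom also called 0. An unadjusted edgeR p below 0.05 was found for 11 of 33, with 9 higher and 2 lower in KO, where 18.0% of all genes had one (9.15% higher and 8.85% lower). The CPM of the genotypes did not overlap for 7 of 33 (16.0% of all genes), with 5 higher in KO (7.23%) and 2 lower (8.72%). The median log2 fold change was 0.11, with 25 above 0 and 8 below. Over all tested genes the median was 0.00296, with 50.5% above 0. The DESeq2 count was 2 without WT 2, 1 without KO 1, 6 without KO 3 and 7 without both WT 4 and KO 3, where DESeq2 called 3.11%, 1.10%, 6.45% and 9.36% of all genes.

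**Figure D1:**
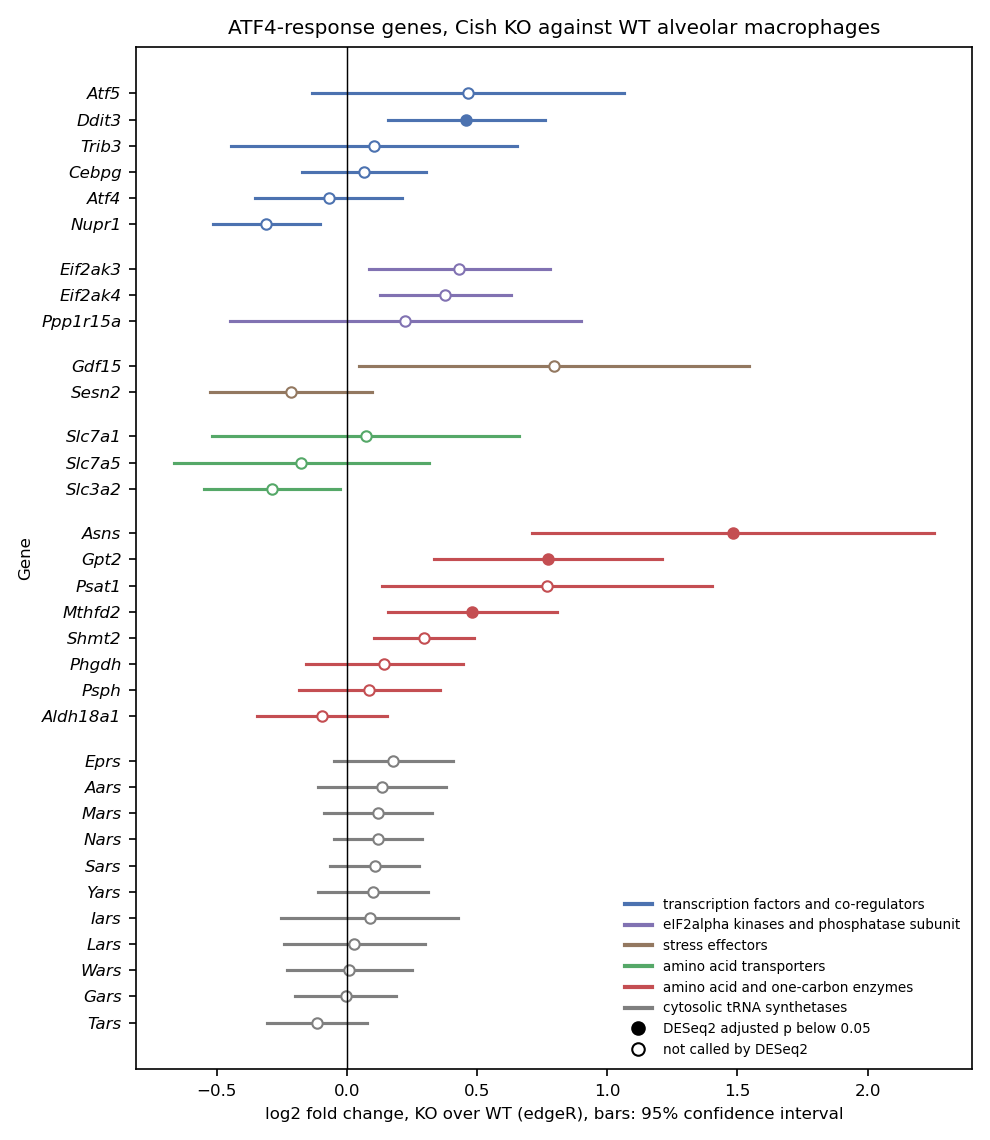
Log2 fold change (KO over WT, edgeR, x axis) of the 33 tested genes, grouped and coloured by role, with bars for the 95% confidence interval; filled points are genes called by DESeq2. Asns lies farthest to the right at 1.48, and the 11 tRNA synthetases lie between -0.11 and 0.18.

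Among the transcription factors and co-regulators, the message of Atf4 did not differ detectably. Atf4 (chromosome 15, 80255184 to 80257545 in mm10) stood at 105, 109, 139 and 94.9 CPM in WT 1 to WT 4 and at 105, 112 and 103 CPM in KO 1 to KO 3. The KO values lay inside the WT range, which WT 3 and WT 4 set. The log2 fold change was -0.07 with a 95% confidence interval of -0.35 to 0.21 (edgeR adjusted p 0.810), and it was 0.05 without WT 3.

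Ddit3, which encodes the C/EBP-family factor CHOP that ATF4 induces, stood at 28.9, 30.7, 40.1 and 37.3 CPM in WT and at 53.3, 46.0 and 41.9 CPM in KO. Every KO library was above every WT library, but KO 3 exceeded WT 3 by little. The difference was 1.38-fold (log2 0.46, SE 0.13), and edgeR gave an adjusted p of 0.140 where DESeq2 gave 0.0449. DESeq2 was fitted 9 times, with all libraries, with each left out and without WT 4 and KO 3. It called Ddit3 in 5 of the 9, losing the call without WT 1, WT 2, KO 1 or KO 2, at adjusted p values of 0.0980 to 0.462. Ddit3 overlaps Mars by 71 bases and Mbd6 by 77 bases, and the library kit does not mark strand, so some reads of the pairs cannot be told apart.

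Nupr1, a small stress-induced chromatin protein, had the opposite sign. The WT libraries held 36.4, 39.0, 43.4 and 38.7 CPM, the KO libraries 34.1, 29.5 and 31.8. All KO values were below all WT values. On the log2 scale the difference was -0.31 (SE 0.09), which neither edgeR (adjusted p 0.141) nor DESeq2 (0.0656) called. The gene shares 2225 bases with a long noncoding RNA gene, Gm39087, and reads of the pair may be mixed.

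The other factors showed no difference beyond their spread. Cebpg, a dimer partner of ATF4, averaged 141 CPM in WT (SD 10.6, n = 4) and 148 CPM in KO (SD 19.9, n = 3), and the SD of the next values are over the same libraries. Atf5, a relative of ATF4 with a similar translational control, had 3.32 CPM ± 0.555 in WT and 4.58 CPM ± 1.71 in KO, where KO 1 stood at 6.47 CPM and KO 2 at 3.15 CPM, inside the WT range. Trib3, a pseudokinase that feeds back on ATF4, had 6.97 CPM ± 0.538 in WT and 7.48 CPM ± 2.80 in KO. Its KO libraries took both ends of the range, with 4.43 CPM in KO 2 and 9.93 CPM in KO 3.

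Both eIF2 kinases among the members had higher means in KO. With all libraries, neither edgeR in its main setting nor DESeq2 called them. EdgeR with the replicate number as a block called Eif2ak3 (log2 fold change 0.57, adjusted p 0.0498). Eif2ak4 encodes GCN2, the kinase that senses uncharged tRNA. In WT it stood at 13.9, 15.3, 14.4 and 14.4 CPM, in KO at 17.1, 18.1 and 21.5 CPM. The WT libraries were close together, and each KO library was above them. The log2 fold change was 0.38 with a 95% confidence interval of 0.13 to 0.63, and the adjusted p was 0.141 in edgeR and 0.0669 in DESeq2. Eif2ak3 encodes PERK, the kinase of the endoplasmic reticulum. It stood at 23.4, 24.0, 18.5 and 30.6 CPM in WT and at 35.3, 31.8 and 30.5 CPM in KO. WT 4 was level with KO 3, and the other WT libraries were lower. The log2 fold change was 0.43 (SE 0.15, edgeR adjusted p 0.192). DESeq2 did not call it with all libraries (adjusted p 0.122). It did in 2 of 9 fits, without WT 4 and without WT 4 and KO 3 together, and its adjusted p ran from 0.00472 to 0.587 over the 9. Ppp1r15a, the stress-induced phosphatase subunit GADD34 that reverses the phosphorylation of eIF2, averaged 65.7 CPM in WT (SD 25.4) and 76.8 CPM in KO (SD 26.6). Its spread among WT libraries was the widest of the 33 genes (coefficient of variation 38.7%), and its log2 fold change of 0.23 was -0.09 without KO 2.

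Among the stress effectors, Gdf15 was the most abundant. It encodes a secreted stress cytokine. Its WT values were 194, 285, 345 and 244 CPM, and its KO values 455, 710.1 and 225 CPM. KO 1 and KO 2 were above every WT library, and KO 3 was below 3 of the 4. The log2 difference was 0.80 (SE 0.33, edgeR adjusted p 0.250). It was 0.35 without KO 2 and 1.13 without KO 3. DESeq2 did not call it with all libraries (adjusted p 0.305). It did in 2 of 9 fits, without KO 3 and without WT 4 and KO 3 together, and its adjusted p ran from 3.46e-05 to 0.742 over the 9. Sesn2, a leucine-sensing inhibitor of mTORC1, stood at 66.8, 58.2, 62.6 and 45.1 CPM in WT and 44.9, 55.8 and 49.9 CPM in KO. The ranges overlapped because of WT 4, and the log2 fold change was -0.21 with a 95% confidence interval of -0.52 to 0.10. Ddit4, another inhibitor of mTORC1, had 3 to 10 reads per WT library and 8 to 16 per KO library. Chac1, which breaks down glutathione, had 2 to 5 and 3 to 11 reads, so a difference was not detectable at this depth for either gene.

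**Figure D2:**
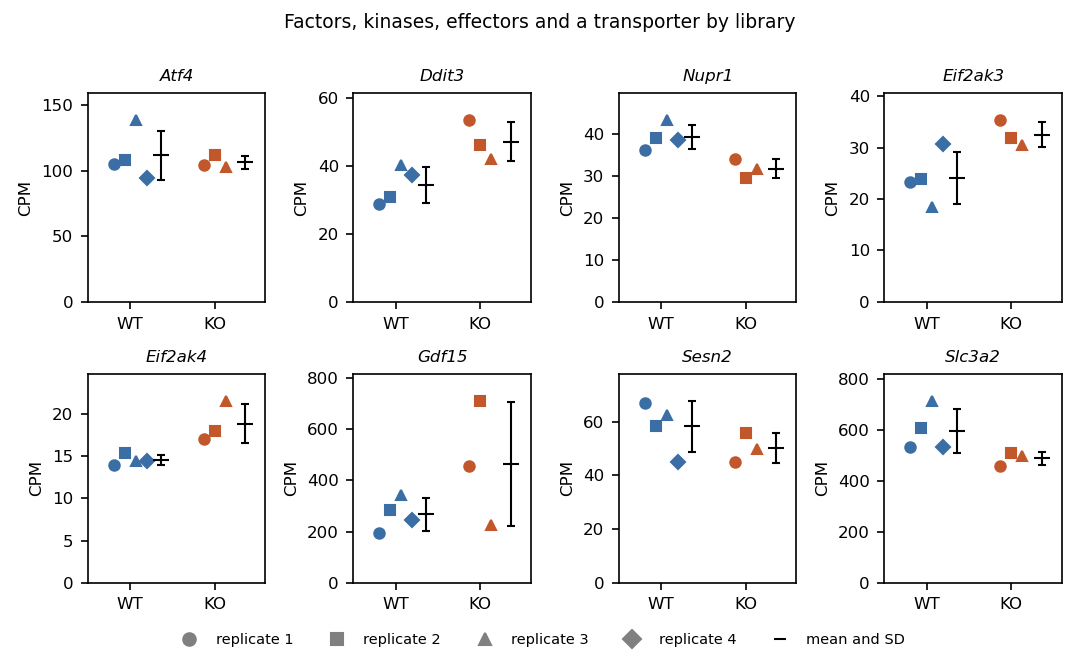
CPM (y axis, from 0) of 8 genes in each WT (blue) and KO (orange) library, with the symbol giving the replicate number and the black bar the mean with its SD (n = 4 and 3). Ddit3 and Eif2ak4 are higher and Nupr1 and Slc3a2 lower in every KO library than in any WT library, whereas Atf4 overlaps and Gdf15 is high in KO 1 and KO 2 only.

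Of the 3 amino acid transporters, 2 had log2 fold changes below 0. EdgeR called 0 of the 3 (0.0862% of all genes) and DESeq2 called 0 (5.20% of all genes). Slc3a2 encodes the heavy chain shared by several transporters. It stood at 533.0, 608, 714 and 533.0 CPM in WT and at 461, 509.9 and 497 CPM in KO. All KO values were below all WT values, with WT 1 and WT 4 nearest to them. Its log2 fold change was -0.29 (SE 0.12), and the adjusted p was 0.239 in edgeR and 0.162 in DESeq2. Slc7a5, the light chain that pairs with it to import leucine and other large neutral amino acids, stood at 49.6, 73.3, 63.1 and 41.3 CPM in WT and 39.1, 47.7 and 64.4 CPM in KO. The ranges overlapped almost entirely, and the log2 fold change was -0.17 (95% confidence interval -0.66 to 0.31). Slc7a1, an importer of arginine and lysine, had 5.92 CPM ± 1.07 in WT and 6.22 CPM ± 2.17 in KO.

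Among the 8 tested enzymes was Asns, which had the largest log2 fold change of the 33 genes. Of the 8, 7 had log2 fold changes above 0 (50.5% of all genes), with a median of 0.39, and DESeq2 called 3 (5.20% of all genes). EdgeR called 0, with 5 at an unadjusted p below 0.05 (18.0% of all genes). Asns, the asparagine synthetase and a standard reporter of ATF4 activity (chromosome 6, 7675165 to 7693209), stood at 8.36, 6.41, 5.76 and 4.10 CPM in WT and at 23.0, 8.24 and 20.4 CPM in KO. KO 1 and KO 3 were above all WT libraries, and KO 2 was level with WT 1. The difference was 2.80-fold with a 95% confidence interval of 1.64 to 4.77 (log2 1.48, SE 0.34). EdgeR gave an adjusted p of 0.0975 (0.0100 with no filter on low counts) and DESeq2 0.000527. DESeq2 called Asns in all 9 fits run, with a log2 fold change of 1.18 (without WT 4 and KO 3) to 1.81 (without KO 2).

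Gpt2, the mitochondrial alanine aminotransferase, stood at 15.8, 12.7, 15.0 and 23.5 CPM in WT and at 27.9, 25.5 and 32.5 CPM in KO. The groups did not overlap, although WT 4 came close to KO 2. The difference was 1.71-fold with a 95% confidence interval of 1.26 to 2.32. EdgeR gave an adjusted p of 0.110, and DESeq2 gave 0.00704. EdgeR called it with no filter on low counts (adjusted p 0.0257) and with the replicate number as a block (0.0134). It also did so without WT 4 (0.0247) and without both WT 4 and KO 3 (0.0195). DESeq2 called it in 8 of 9 fits, the exception being the one without KO 1 (0.0608).

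The mitochondrial one-carbon enzymes followed. Mthfd2, which oxidises methylene-tetrahydrofolate there, stood at 34.8, 30.9, 32.5 and 22.9 CPM in WT and 46.9, 37.5 and 42.5 CPM in KO, without overlap. The difference was 1.40-fold (edgeR adjusted p 0.145, DESeq2 0.0495). DESeq2 called it in 3 of 9 fits and lost the call without WT 2, WT 3, WT 4, KO 1 or KO 3, and without WT 4 and KO 3 together, at adjusted p values of 0.0604 to 0.438. Shmt2, which makes glycine from serine in the same compartment, was tight in WT, at 38.2, 35.6, 34.4 and 36.2 CPM, and ran from 40.2 to 47.9 CPM in KO. Again no values overlapped. The log2 fold change of Shmt2 was 0.30 (SE 0.09), and its adjusted p 0.136 in edgeR and 0.0791 in DESeq2.

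Of the 3 enzymes of serine synthesis, 0 were called with all libraries by edgeR (0.0862% of all genes) or DESeq2 (5.20% of all genes). Psat1, the transaminase of the middle step, stood at 19.6, 12.9, 12.7 and 9.14 CPM in WT and at 30.7, 23.8 and 15.1 CPM in KO. KO 3 lay between WT 1 and the other WT libraries. The log2 difference was 0.77 (SE 0.28, edgeR adjusted p 0.201), and it was 0.51 without KO 1. DESeq2 did not call it with all libraries (adjusted p 0.0710). It did in 3 of 9 fits, without WT 1, without KO 3 and without WT 4 and KO 3 together, and its adjusted p ran from 0.00400 to 0.603 over the 9. The first enzyme, Phgdh, had 82.7 CPM ± 10.7 in WT and 91.4 CPM ± 14.9 in KO. The last, the phosphatase Psph, had 19.6 CPM ± 2.21 and 20.9 CPM ± 2.23. Their 95% confidence intervals on the log2 scale were -0.16 to 0.45 and -0.19 to 0.36, so that no difference was detectable for either. Aldh18a1, the first enzyme of proline synthesis, had 55.9 CPM ± 6.71 and 52.3 CPM ± 4.82, and no difference was detectable (95% confidence interval of the log2 fold change -0.34 to 0.15). Pycr1, the last enzyme, was too low for the count filter of edgeR, at 0 to 5 reads.

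**Figure D3:**
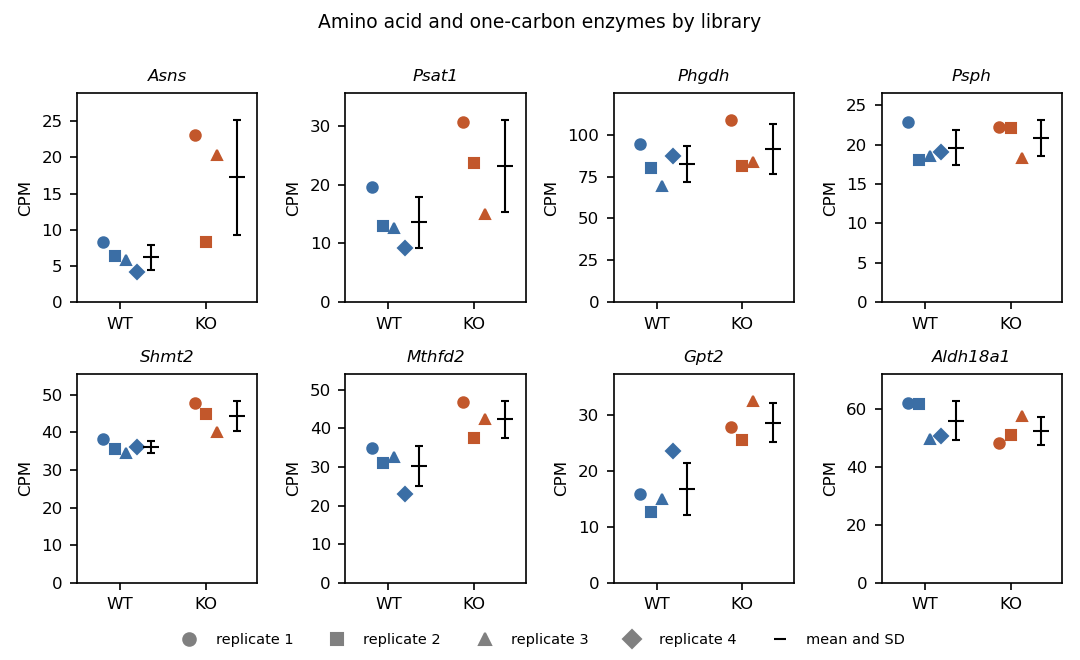
CPM (y axis, from 0) of the 8 tested enzymes in each WT (blue) and KO (orange) library, with the symbol giving the replicate number and the black bar the mean with its SD (n = 4 and 3). Shmt2, Mthfd2 and Gpt2 do not overlap between genotypes; in Asns KO 2 (8.24 CPM) is level with WT 1 (8.36 CPM), and in Psat1 KO 3 lies among the WT libraries.

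The tRNA synthetases, which join each amino acid to its tRNA, showed no detectable difference. None of the 11 was called by edgeR (0.0862% of all genes) or DESeq2 (5.20% of all genes). An unadjusted p below 0.05 was found for 0 (18.0% of all genes). The groups overlapped for all 11, where 16.0% of all genes did not overlap. The log2 fold changes ran from -0.11 (Tars) to 0.18 (Eprs) with a median of 0.10; 9 were above 0, but Wars and Lars turned negative with library sizes only and Gars turned positive with upper-quartile factors. Eprs, the fused glutamyl and prolyl enzyme, stood at 134, 138, 146 and 135 CPM in WT and at 152, 136 and 181 CPM in KO. KO 3 was the highest library and KO 2 was among the WT ones (edgeR adjusted p 0.387). Nars, for asparagine, stood at 189, 207, 189 and 196 CPM in WT and at 221, 205 and 211 CPM in KO. Its log2 fold change was 0.12 with a 95% confidence interval of -0.05 to 0.29, while Asns, which makes that amino acid, had the largest fold change of the 33. The highest upper bound among the 11 was 0.43 (Iars) and the lowest lower bound -0.30 (Tars). These are limits of a separate 95% confidence interval for each gene, so larger changes are not excluded.

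**Figure D4:**
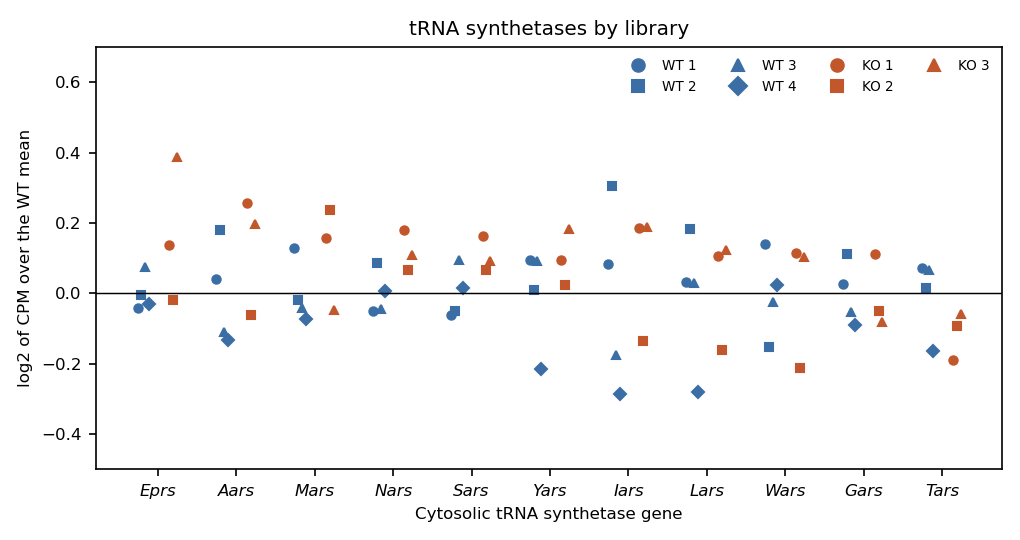
Log2 of CPM over the WT mean (y axis) for the 11 tRNA synthetase genes in each WT (blue) and KO (orange) library, the symbol giving the replicate number. WT and KO libraries overlap for every gene; the highest single value is Eprs in KO 3.

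Set against the promoter letters, the fold changes of genes with and without a match overlapped. The 8 tested genes with a match ran from -0.31 (Nupr1) to 1.48 (Asns) with a median of 0.09 in log2 fold change. The 21 tested genes with a window but no match ran from -0.29 to 0.80 with a median of 0.18. Both medians are descriptions of few genes. Of the 8 with a match 5 are tRNA synthetases, so element and role cannot be told apart here. Letters outside the windows were not searched, and an effect of the element was not tested.

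Levels can be compared between genes only per length of transcript. Per kilobase of annotated exon (GENCODE M21), the WT level was highest for Slc3a2, at 169 CPM per kilobase ± 24.3 (SD, n = 4), and Gdf15, at 144 ± 34.6, followed by Gars at 84.7 ± 5.31 and Atf4 at 47.4 ± 7.96. Within serine synthesis, Phgdh stood at 33.3 ± 4.31 CPM per kilobase, above Psph at 4.54 ± 0.510 and Psat1 at 3.20 ± 1.03. Asns was low in WT, at 2.25 ± 0.645 CPM per kilobase, and stood at 6.30 ± 2.89 in KO. The exon length is the union over all annotated transcripts, which lowers the value of genes with many of them.

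Other genes of the pathway came from 7 lists, made by pathway and not by values, but with other results of these data known. EdgeR called 0 genes in any of them (0.0862% of all genes). Among 13 other cytosolic synthetase and partner genes, 4 higher and 1 lower had an unadjusted p below 0.05 (9.15% and 8.85% of all genes). DESeq2 called 0 of them (5.20% of all genes). Cars, the cysteinyl enzyme, had 39.6 CPM ± 2.06 in WT and 47.6 CPM ± 2.41 in KO, and Farsb, a subunit of the phenylalanyl enzyme, had 103 CPM ± 4.08 and 121 CPM ± 8.56, both without overlap (edgeR adjusted p 0.140 and 0.183). Of 17 mitochondrial synthetases 11 had log2 fold changes below 0, where 50.5% of all genes were above 0. DESeq2 called 1, Lars2, higher (2.48% of all genes), at 2891 CPM ± 508 in WT and 5079 CPM ± 1445 in KO (DESeq2 adjusted p 0.00223). Its genotypes overlapped, with WT 4 at 3629 CPM and KO 2 at 3450 CPM. Lars2 stood far above the rest of the list, of which Rars2 had the next highest WT mean, 39.5 CPM. What the Lars2 reads stem from was not tested. Tars2 had 34.1 CPM ± 1.72 and 29.4 CPM ± 1.01, lower in every KO library but not called. The machinery of the response, from the other kinases to the eIF2 and eIF2B subunits, had 13 tested genes. Of these, 0 were called by either tool and 0 had an unadjusted p below 0.05 (18.0% of all genes). The smallest p values in this list belonged to Eif2s1, the phosphorylated subunit of eIF2 (log2 fold change -0.18, edgeR adjusted p 0.287), and Eif2b3 (-0.24, 0.297).

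Further targets and partners of ATF4 split in direction. Of 13 tested out of 21 listed, 9 were above 0 (50.5% of all genes) and 4 below. Cars and Xpot are counted both here and among the other cytosolic synthetase and partner genes. DESeq2 called 2 higher (2.48% of all genes) and 1 lower (2.72%). Eif4ebp1, a repressor of cap-dependent translation, was the lower one, at 87.4 CPM ± 5.03 in WT and 71.0 CPM ± 3.77 in KO (DESeq2 adjusted p 0.0334). The higher ones were Slc7a11, the cystine importer, at 6.29 CPM ± 1.94 and 11.9 CPM ± 5.46 (0.0458), and the growth factor gene Vegfa, at 3.74 CPM ± 0.863 and 6.12 CPM ± 1.14 (0.0494), both named after their values were seen. Of 17 other folate, glycine and proline genes, 3 higher and 0 lower had an unadjusted p below 0.05, which is 3 of 17 where 18.0% of all genes had such a p in either direction. Got1 (log2 fold change 0.67) and Shmt1 (0.43) had the smallest p, and DESeq2 called 0. Among 12 genes of mTORC1 restraint and amino acid sensing DESeq2 called Tsc1, at 6.09 CPM ± 0.605 in WT and 9.41 CPM ± 0.860 in KO, and Castor2, an arginine sensor relative, at 0.893 CPM ± 0.0901 and 1.81 CPM ± 0.187. Both did not overlap between genotypes, as was so for 16.0% of all genes, and DESeq2 called 5.20% of all genes. In this list 7 of the 12 had log2 fold changes below 0.

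Beside PERK, the unfolded protein response has IRE1 and ATF6 arms, which raise chaperones. Of 20 chaperone and sensor genes, 19 had log2 fold changes above 0 (50.5% of all genes), with a median of 0.28. DESeq2 called 7, all higher, where it called 2.48% of all genes higher. EdgeR called 0, with 8 at an unadjusted p below 0.05, all higher (9.15% of all genes). Ern1, Atf6 and Xbp1, the sensors and factor of these arms, had log2 fold changes of 0.02, 0.11 and -0.03 (edgeR adjusted p 0.978, 0.663 and 0.926). Manf, a secreted factor of the endoplasmic reticulum, had 183 CPM ± 38.9 in WT and 320 CPM ± 63.4 in KO (edgeR adjusted p 0.0950). Hspa5, the main chaperone, had a log2 fold change of 0.66 (edgeR adjusted p 0.0970). Ddit3 and Eif2ak3, which belong to both pathways, had log2 fold changes of 0.46 and 0.43.

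**Figure D5:**
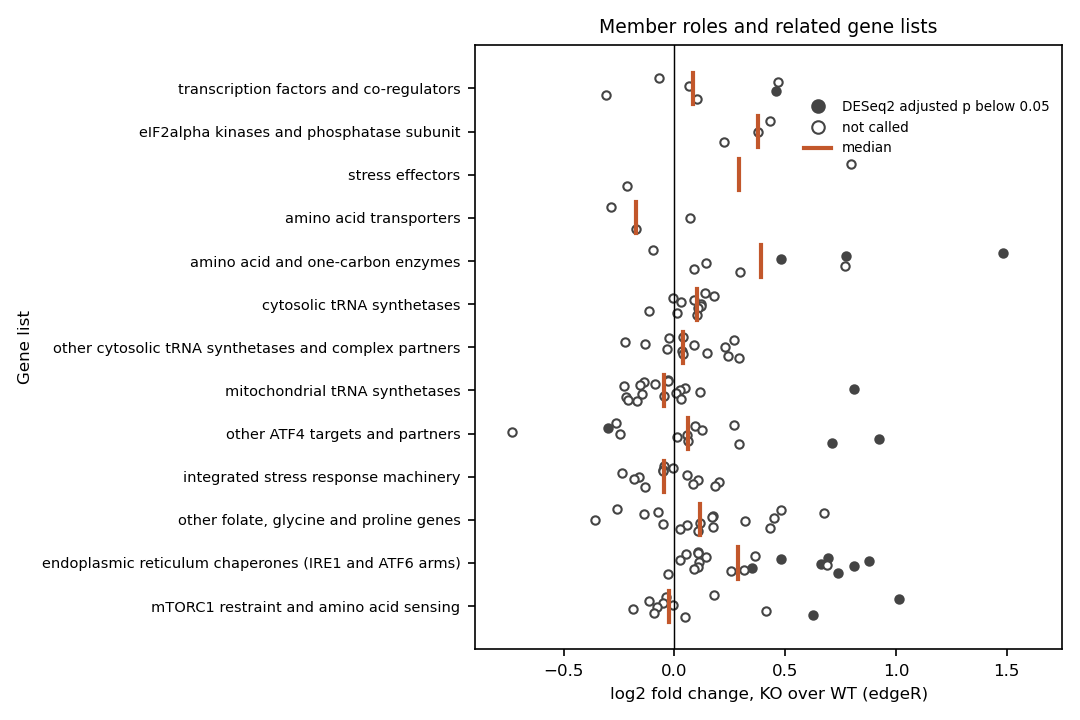
Log2 fold change (KO over WT, edgeR, x axis) of every tested gene in the 6 roles and the 7 related lists (rows), with filled points for genes called by DESeq2 and an orange bar for the median. The median is 0.39 in the enzymes and 0.28 in the endoplasmic reticulum chaperones, against 0.10 in the cytosolic tRNA synthetases.

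Markers of other cells were measured beside these values. The summed level of 6 endothelial markers was 11.9 to 16.5 CPM in WT and 18.5 to 32.4 CPM in KO, higher in every KO library. All 6 were detected, 3 of them at a mean under 1 CPM. Most of the sum was Vwf, at 9.71, 12.85, 11.58 and 9.98 CPM in WT and 22.8, 10.4 and 19.2 CPM in KO, with overlap. The summed level of 8 epithelial markers was 165 to 350 CPM in WT and 124 to 159 CPM in KO, but its members differed in sign. Epcam had 135 to 302 CPM in WT and 9.24, 29.5 and 92.6 CPM in KO 1 to KO 3 (log2 fold change -2.25). The other 6 tested, Sftpc, Sftpb, Sftpa1, Scgb1a1, Scgb3a2 and Ager, had log2 fold changes of 0.88 to 2.00, with edgeR adjusted p values of 0.248 to 0.429. Sftpc, a surfactant protein gene of alveolar type II cells, had 17.65, 28.95, 12.88 and 47.19 CPM in WT and 69.5, 63.1 and 19.2 CPM in KO, so KO 1 and KO 2 were the highest libraries and KO 3 lay within the WT range. Red cell markers were at 13.5 to 348 CPM in WT and 284 to 855 CPM in KO. For 8 neutrophil markers the sums overlapped, at 32.4 to 56.1 and 26.4 to 47.1 CPM, with Ly6g at 0 in all libraries. Sums of the T and NK cell, B cell, dendritic cell, fibroblast, and eosinophil and mast cell lists stayed at or below 23.6 CPM in every library, with Mcpt4 and Ms4a2 at 0. Monocyte and interstitial macrophage markers, mostly Cd14, overlapped at 511 to 856 and 592 to 1112 CPM. The part of such cells in the differences above was not tested, and in sorted bulk RNA fewer cells of a type and less RNA per cell cannot be told apart.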

How the data were processed

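The authors deposited raw counts of reads by gene symbol for 7 libraries in 1 table; it was made with rsubread by its name, and the submitters' processing notes give the build mm10 and DESeq2. Per the labels' protocols, RNA came from sorted cells in TRIzol LS and libraries from Nextera XT. For the annotation, strand setting and multiply mapped reads, the choice is not given in the sources used here. Of 27179 rows, 1036 without a symbol (0.376% to 0.424% of counts) were left out.

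Counts were tested in R 4.3.3 with edgeR 4.0.16 (filterByExpr, TMM, quasi-likelihood F test on genotype, 5 residual degrees of freedom), with Benjamini-Hochberg adjustment over 12759 genes, and calls were made below 0.05, 2-sided. Standard errors are the log2 fold change over the root of F. DESeq2 1.42.0 on all rows and limma 3.58.1 (voom) were alternatives, as were other scalings and filters, the replicate number as a block, and libraries left out. DESeq2 with libraries left out was added after the data were seen. The edgeR and DESeq2 tests were tested on simulated data. Members and lists were chosen with earlier results of these data known. Full values are given for Atf4, for members called by either tool and for the pair with the smallest edgeR p per role, with Psat1 and Shmt2 added after their values were seen; of each related list the pair with the smallest p is named.

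RefSeq names and promoter windows (GRCm38.p6, the build of mm10) matched 36 and 32 members. Another RefSeq gene overlaps 15 members, and reads of such pairs may be mixed. Intervals cover the spread between libraries. Copies of 1 molecule cannot be told apart, as no molecular identifiers were used.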

Additional observations from a re-analysis of the deposited data

How the results depend on the processing

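The count of genes called by edgeR was 11 and the count of members called was 0. The number of genes called was 730 by DESeq2, 397 with no filter, 21 with the filter of 5 CPM in 3 libraries, 46 by voom, 19 with a term for WT 4 and KO 3, 590 without WT 4 and KO 3 together and 1264 there by DESeq2; it lay between 7 and 1110 with 1 library left out, by edgeR or DESeq2. The number of members called was 4 by DESeq2 and 2 by edgeR with no filter (Asns and Gpt2). It was 1 without WT 4 and KO 3 together and 7 there by DESeq2, and 0 to 6 with 1 library left out. With the replicate block, 430 genes and 2 members (Gpt2 and Eif2ak3) were called, and WT 4 has no partner in that fit. The deviations of same-numbered libraries had correlations of -0.00828, 0.142 and -0.0173, and those of the other combinations ran from -0.207 to 0.155. So few values cannot settle whether the numbers are pairs, and the main test did not take them as pairs. The median log2 fold change of the members stayed above 0 in all 25 alternatives and moved by less than the spread between libraries.

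Of the 33 members, 22 kept the sign of their log2 fold change in all alternatives and 11 did not, all of them with intervals that include 0. Gars was 0.00086 with upper-quartile factors, 0.015 with the stricter filter, 0.0045 without WT 4 and KO 3 and 0.0053 with a term for them, and -0.067 to 0.035 with 1 library left out. Wars was -0.039 with library sizes only, -0.0042 with no filter, -0.030 without WT 4 and KO 3 (-0.038 by DESeq2) and -0.047 to 0.105 with 1 library left out. Lars was -0.026 with library sizes only, -0.058 with the replicate block, -0.103 without WT 4 and KO 3 (-0.109 by DESeq2) and -0.059 to 0.110 with 1 left out. Slc7a1 was -0.052 with the block, -0.189 without WT 4 and KO 3 (-0.198 by DESeq2) and -0.118 to 0.328 with 1 left out. Without WT 4 and KO 3, by edgeR and by DESeq2, Trib3 was -0.167 and -0.175, Yars -0.0047 and -0.011, and Iars -0.049 and -0.056. With 1 library left out the ranges were -0.158 to 0.365 for Trib3, -0.0013 to 0.206 for Iars, -0.144 to 0.051 for Atf4, -0.060 to 0.132 for Cebpg, -0.097 to 0.509 for Ppp1r15a and -0.00073 to 0.215 for Phgdh. The cause was not tested. Fits with 1 library fewer also have fewer residual degrees of freedom. Ddit4, Chac1 and Pycr1 did not pass the count filter of edgeR. DESeq2 gave adjusted p values of 0.392 for Ddit4 and 0.549 for Chac1, and none for Pycr1.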

Other observations

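The libraries differed in how often they held the extreme value of a member. KO 1 was the highest library for 12 of the 33 tested genes and KO 3 for 6, while WT 4 was the highest for 0 and the lowest for 10. Over all 12759 tested genes, KO 1 was the highest for 2508 and KO 3 for 1480, and WT 4 was the highest for 1653 and the lowest for 1570. KO 3 was the lowest library for 0 of the 33 and for 1445 of the 12759.

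The spread between WT libraries also differed between genes of the response. The coefficient of variation in WT was 32.2% for Psat1, 28.6% for Asns and 24.9% for Slc7a5, but 4.33% for Shmt2, 4.08% for Eif2ak4 and 3.71% for Eprs. In KO it was highest for Gdf15, at 52.4%.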
